A study of Mus musculus with 4 samples.

Results

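Fatty acid oxidation, ketone body production and fatty acid synthesis are the lipid programmes of the hepatocyte, and 40 genes that carry them out were followed here in AML12 cells grown in 2D and in 3D. The genes were picked by their place in the pathways, with earlier results of these data known. Of them, 19 act in oxidation, 1 in ketone body interconversion, 2 in fatty acid uptake and binding, 13 in synthesis and 5 in triglyceride storage. All 40 were present in the table of 31828 genes. In the liver, fasting directs fatty acids into mitochondria, where carnitine carries the acyl chains across the inner membrane and a repeated cycle of dehydrogenation, hydration and thiolysis shortens them to acetyl-CoA, part of which leaves as ketone bodies. After feeding, insulin and glucose act through the transcription factors SREBP1 and ChREBP, and acetyl-CoA is instead built into palmitate, then elongated, desaturated and stored as triglyceride in lipid droplets. Malonyl-CoA links both directions, since it is the substrate of synthesis and the inhibitor of carnitine palmitoyltransferase.

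AML12 is an established mouse hepatocyte line derived from a transgenic mouse. The study asked how culture geometry changes the genome and transcriptome of these cells, and RNA-seq of polyadenylated RNA was made from 2 libraries of 2D-cultured cells and 2 libraries of 3D-cultured cells. The 2D-cultured cells grew on 10 cm dishes and had reached 50% confluence when hydroxyurea, a replication inhibitor used to synchronise cells, was given, whereas the 3D-cultured cells had spent 24 h embedded in Matrigel, a basement membrane gel. Hydroxyurea was given at 1 mM to every culture, but the 3D-cultured cells were exposed for 36 h against 24 h in the 2D-cultured cells. Culture geometry, the Matrigel itself, the growth state when the drug was given and the length of drug exposure therefore cannot be told apart. Medium for all cultures contained 10% fetal calf serum, 10 µg/mL insulin and 40 ng/mL dexamethasone, which themselves act on lipid genes, and all cells were grown for 48 h before they were replated. Nothing in the labels states that the 2 libraries of a group came from separate cultures, so p-values measure the spread between these libraries, which may be technical.

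Expression is given as TPM, the relative abundance of transcripts scaled to a fixed total per library, a measure corrected for transcript length that lets levels of different genes be compared within a library. Between 13891 and 14256 genes had at least 1 TPM in each library, and mitochondrially encoded transcripts took 5.37 to 5.44% of the TPM in 2D and 6.51 to 6.78% in 3D. Of 12 hepatocyte markers, 6 rose in 3D, the keratins Krt8 and Krt18 fell, and Serpina1a, Fgb, Cps1 and Asgr1 stayed below 1 TPM in every library. Albumin (Alb) was measured at 0.819 and 1.20 TPM in 2D and 12.7 and 10.0 TPM in 3D. The adipocyte markers Adipoq, Lep, Plin1 and Pparg were below 0.5 TPM in all libraries, and the summed level of the 8 adipocyte markers in the table, most of it Fabp4, was 51.2 and 51.9 TPM in 2D and 47.4 and 50.3 TPM in 3D. The 4 adipocyte markers that were tested moved in both directions: Cidec and Lipe rose, with log2 fold changes of 1.44 and 0.93, and Retn and Fabp4 fell, with -0.84 and -0.34. Of the other marker lists, 2 of 7 macrophage markers, 1 of 6 endothelial markers and 1 of 5 stellate and fibroblast markers had a mean of at least 1 TPM. Of these, Vwf (endothelial) rose from 1.09 and 1.08 TPM to 5.18 and 5.05 TPM, Des (stellate) fell from 33.7 and 36.1 TPM to 18.8 and 17.3 TPM (adjusted p = 0.00122), and the macrophage markers Cd68 and Lyz2 did not pass the test. In bulk RNA, a lower share of cells expressing a gene and a lower amount of its RNA per cell give the same value.

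Most of the lipid genes were higher in 3D-cultured cells. Of the 40 genes, 38 had a mean of at least 1 TPM over the 4 libraries and were tested with limma on log2(TPM + 1) (adjusted p under 0.05 after Benjamini-Hochberg adjustment over all genes tested). Among these, 24 (63.2%) were higher and 6 (15.8%) were lower in 3D, against 23.4% higher and 27.1% lower of the 14116 genes tested, and 8 did not pass the test. With either direction counted, 30 members (78.9%) passed, against 50.5% of all genes tested. The genes tested were not matched to the members by level. With a filter of 5 TPM, 6002 of 10915 genes passed. A difference of at least 0.5 on the log2 scale together with the test was reached by 14 members that were higher and 2 that were lower, which is 42.1% of the members against 27.1% of all genes tested. The median log2 fold change (3D over 2D throughout) of the 38 tested members and the 2 below the level for testing was 0.34, beside -0.04 over all genes tested. The values of both libraries of a culture lay apart from those of the other culture for 36 of the 40 genes, and the 4 genes with overlapping cultures were Acadvl, Fasn, Dgat1 and Fabp1. The share of all genes with libraries apart was not computed, so this count describes the members without a comparison.

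**Figure D1:**
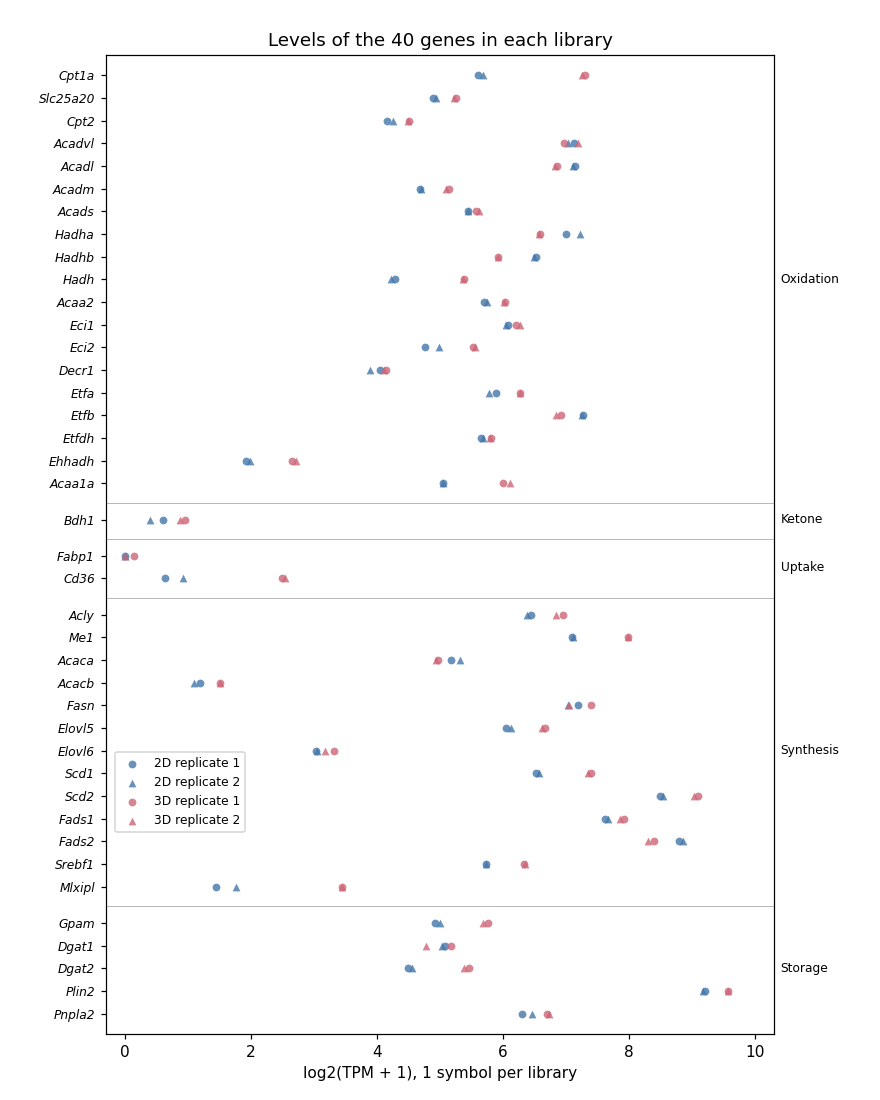
Levels of the 40 genes on a log2(TPM + 1) axis, with 1 symbol per library, blue for 2D, red for 3D, and a circle or triangle for replicate 1 or 2. Plin2, Scd2 and Fads2 are the most abundant transcripts, Bdh1 and Fabp1 lie at the left end below 1 TPM, and Cpt1a, Mlxipl and Cd36 show the widest gaps between the cultures.

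Oxidation genes did not move as 1 block. Of the 19, 11 rose, 4 fell and 4 did not pass the test, with a median log2 fold change of 0.29 and a range from -0.59 to 1.63. Their summed level was 1129 and 1141 TPM in 2D and 1250 and 1259 TPM in 3D. The carnitine shuttle rose in all 3 of its steps, whereas the mitochondrial cycle itself was split, with 3 of its 8 genes higher and 3 lower.

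Cpt1a encodes the liver carnitine palmitoyltransferase of the outer mitochondrial membrane, the step at which entry of long chains is controlled and which malonyl-CoA inhibits. It was at 47.7 and 50.6 TPM in 2D and at 157 and 151 TPM in 3D, and the libraries of each culture lay close together and far from the other culture. The ratio of the means was 3.13, and the log2 fold change was 1.63 (SE 0.05, adjusted p = 0.000241), the highest of the oxidation genes. Slc25a20, the translocase that moves acylcarnitine through the inner membrane, rose from 28.6 and 29.7 TPM to 37.3 and 36.2 TPM (log2 fold change 0.33, adjusted p = 0.00966). Cpt2, which returns the chain to coenzyme A inside the mitochondrion, rose from 16.8 and 18.2 TPM to 21.7 and 21.5 TPM (log2 fold change 0.29, adjusted p = 0.0253). The smaller differences of the latter genes were less firm: without 3D replicate 1 the adjusted p was 0.0618 for Slc25a20 and 0.111 for Cpt2, and for Cpt2 it was also 0.0995 without 3D replicate 2 and 0.0754 without 2D replicate 1. Cpt1a passed under every alternative setting.

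The bases before the Cpt1a start are shown because this gene had the widest change among the oxidation genes. They are the 250 bases upstream of its RefSeq start on mouse build GRCm38.p6, written 5′ to 3′ along the plus strand of the gene, and capitals mark a CCAAT box and 2 GC boxes (GGGCGG, read here from the other strand).
Cpt1a (chr19:3323051-3323300, plus strand): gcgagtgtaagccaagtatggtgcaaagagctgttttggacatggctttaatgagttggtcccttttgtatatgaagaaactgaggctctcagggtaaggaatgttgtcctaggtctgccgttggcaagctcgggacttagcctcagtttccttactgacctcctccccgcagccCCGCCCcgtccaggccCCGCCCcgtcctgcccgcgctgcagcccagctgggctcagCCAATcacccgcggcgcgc
No DR1 element, the AGGTCA repeat bound by PPAR and RXR, and no sterol regulatory element or E-box was matched in the Cpt1a window, which says only that these letters do not occur there.

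Within the mitochondrial cycle, genes that fell stood beside genes that rose. Acadvl, the very long-chain acyl-CoA dehydrogenase and the most abundant transcript of the cycle by its mean over the 4 libraries, was at 139 and 130 TPM in 2D and 124 and 144 TPM in 3D. The cultures overlapped for Acadvl, and the 95% interval of the log2 difference ran from -0.229 to 0.219. The dehydrogenase for long chains, Acadl, fell from 140 and 137 TPM to 115 and 112 TPM (log2 fold change -0.29, adjusted p = 0.00531), and a processed pseudogene on the same strand inside it, Gm15793 (mean 3.84 TPM in 2D and 3.48 TPM in 3D), leaves the split of a small part of its reads uncertain. The dehydrogenase for medium chains, Acadm, moved the other way, from 24.8 and 24.9 TPM to 34.3 and 33.0 TPM (log2 fold change 0.42, adjusted p = 0.00455). Acads, for short chains, was at 42.3 and 42.6 TPM in 2D and 46.3 and 48.1 TPM in 3D and did not pass the test (adjusted p = 0.0669). Thus the acyl-CoA dehydrogenases differed in direction by gene, with libraries apart by culture for all but Acadvl.

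Hadha and Hadhb encode the alpha and beta subunits of the mitochondrial trifunctional protein, which carries out the hydration, dehydrogenation and thiolysis of long chains. Hadha was at 127 and 149 TPM in 2D and 94.9 and 94.4 TPM in 3D. Hadhb was at 90.4 and 89.3 TPM in 2D and 59.8 and 59.2 TPM in 3D. Both subunits were lower in both 3D libraries, by a log2 difference of -0.53 (SE 0.09, adjusted p = 0.00769) for Hadha and -0.59 (SE 0.04, adjusted p = 0.000942) for Hadhb, the lowest values of the 40 genes. In the deposited annotation their starts lie head to head on chromosome 5, on opposite strands, with 85 bases between them. The RefSeq starts used for the motif search lie at other positions, so these 85 bases hold for the deposited annotation only. These bases are shown because they separate the starts of 2 genes that fell together; they run 5′ to 3′ along the Hadhb strand on GRCm38.p6, and capitals mark 2 GC boxes.
Hadhb to Hadha interval (chr5:30155163-30155247, plus strand): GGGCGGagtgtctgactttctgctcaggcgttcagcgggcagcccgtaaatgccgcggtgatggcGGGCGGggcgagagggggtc
The within-library ratio of Hadha to Hadhb was 1.40 and 1.67 in 2D and 1.59 and 1.59 in 3D, so the 3D values lay inside the 2D range.

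Hadh, the dehydrogenase of the short and medium chains, rose while the long-chain complex fell. It was at 18.5 and 17.7 TPM in 2D and 40.8 and 40.2 TPM in 3D, a ratio of means of 2.23 and a log2 fold change of 1.12 (SE 0.06, adjusted p = 0.000494). Each culture was tight and there was no overlap. Acaa2, the mitochondrial thiolase, rose less, from 51.2 and 52.7 TPM to 64.4 and 64.0 TPM (log2 fold change 0.30, adjusted p = 0.00722).

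Unsaturated chains need additional enzymes to enter the cycle. The isomerase Eci2, which works in peroxisomes as well as mitochondria, was at 26.2 and 30.7 TPM in 2D and 45.1 and 46.2 TPM in 3D. Both 3D libraries were above both 2D libraries (log2 fold change 0.67, SE 0.09, adjusted p = 0.00440). The more abundant mitochondrial isomerase Eci1 was at 66.8 and 65.2 TPM in 2D and 73.0 and 76.3 TPM in 3D, a small difference (log2 fold change 0.18, SE 0.05, adjusted p = 0.0392) that missed the threshold without any single library, with an adjusted p of 0.0726 without 2D replicate 1, 0.108 without 2D replicate 2, 0.0922 without 3D replicate 1 and 0.187 without 3D replicate 2. Decr1, the dienoyl-CoA reductase, did not pass (adjusted p = 0.175), with 15.5 and 13.8 TPM in 2D and 16.8 and 16.3 TPM in 3D.

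The electron transfer flavoprotein takes the electrons of the acyl-CoA dehydrogenases, and the genes of its subunits moved in opposite directions. Etfa, the alpha subunit, was at 57.9 and 53.6 TPM in 2D and 76.4 and 75.7 TPM in 3D (log2 fold change 0.44, adjusted p = 0.00404). Etfb, the beta subunit and the more abundant of the pair, was at 153 and 151 TPM in 2D and 120 and 114 TPM in 3D (log2 fold change -0.38, SE 0.05, adjusted p = 0.00348). Neither gene had overlapping cultures. Etfdh, which passes the electrons on to ubiquinone, was at 49.5 and 50.4 TPM in 2D and 54.8 and 54.3 TPM in 3D and did not pass the test (adjusted p = 0.0870).

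Both peroxisomal members rose. The peroxisomal thiolase Acaa1a was at 31.9 and 32.0 TPM in 2D and 63.2 and 67.7 TPM in 3D, with a ratio of means of 2.05 and a log2 fold change of 1.01 (SE 0.06, adjusted p = 0.000565). Reads of Acaa1a may be shared with its close paralog Acaa1b, which rose as well, from 10.5 and 9.02 TPM to 18.5 and 19.1 TPM (adjusted p = 0.00262). The neighbour that overlaps Acaa1a on the opposite strand, Myd88, went down, from a mean of 64.5 to 44.6 TPM, and the library kit keeps strand. Ehhadh, the bifunctional enzyme that hydrates and dehydrogenates chains in the peroxisome was less abundant, at 2.81 and 2.97 TPM in 2D and 5.28 and 5.58 TPM in 3D, and was higher in both 3D libraries (log2 fold change 0.72, SE 0.10, adjusted p = 0.00477).

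Ketone body interconversion was represented by a gene of low level. Bdh1, the mitochondrial dehydrogenase that interconverts acetoacetate and beta-hydroxybutyrate and an abundant transcript of liver, was at 0.525 and 0.321 TPM in 2D and 0.935 and 0.844 TPM in 3D. The cultures did not overlap, but every library was below 1 TPM and the gene was not tested.

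Uptake was represented by a transporter that rose and a binding protein that was near 0. Cd36, the fatty acid translocase of the cell surface, was at 0.556 and 0.910 TPM in 2D and 4.66 and 4.81 TPM in 3D. It was low in both 2D libraries and higher in both 3D libraries, with a ratio of means of 6.46 and a log2 fold change of 1.73 (SE 0.15, adjusted p = 0.00136) that the pseudocount of 1 makes smaller than the ratio of TPM. Cd36 is also a gene of endothelial cells and macrophages: the endothelial markers Pecam1, Cdh5 and Kdr stayed below 1 TPM in every library as did Tek (mean 0.256 TPM in 2D and 0.527 TPM in 3D) and Stab2 (0.0794 and 0.577 TPM), both with libraries apart by culture, while the summed endothelial markers were at 1.97 and 2.61 TPM in 2D and 6.82 and 7.18 TPM in 3D, mostly through Vwf in 3D, and the summed macrophage markers were at 20.9 and 20.5 TPM in 2D and 27.2 and 24.0 TPM in 3D, mostly Cd68. Of the macrophage markers below 1 TPM, Csf1r (mean 0.154 TPM in 2D and 0.475 TPM in 3D) and Ptprc (0.1475 and 0.288 TPM) were higher in both 3D libraries. Clec4f (0.0858 and 0.0365 TPM) was lower in both. The part of the endothelial and macrophage markers in the Cd36 difference was not tested. Fabp1, the fatty acid-binding protein that is among the abundant proteins of the liver, was listed at 0 in both 2D libraries and in 3D replicate 2, and at 0.110 TPM in 3D replicate 1.

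Of the members, 5 had a match to a DR1 element, which is a repeat of AGGTCA with 1 base between the copies (AGGTCANAGGTCA, N being any base) found with at most 2 mismatches in 12 letters on either strand, in the window from 250 bases before to 50 bases after a RefSeq start. They are shown because DR1 is the element through which PPAR receptors act on oxidation and droplet genes. Each is written 5′ to 3′ along the strand of its gene with 8 flanking bases on each side, from RefSeq on GRCm38.p6, with the match in capitals; only in Slc25a20 does the match read along the strand of the gene.
Cd36 (chr5:17835939-17835967, minus strand): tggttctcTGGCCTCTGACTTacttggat
Fabp1 (chr6:71199804-71199832, plus strand): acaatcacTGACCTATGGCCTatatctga
Plin2 (chr4:86670264-86670292, minus strand): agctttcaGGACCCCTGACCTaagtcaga
Etfa (chr9:55512300-55512328, minus strand): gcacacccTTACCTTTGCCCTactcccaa
Slc25a20 (chr9:108662134-108662162, plus strand): ctgaatgtAGGTGAAAGGTCGgcggagcc
The matches lay 63 bases before the start in Cd36, 67 in Fabp1, 225 in Plin2 and 77 in Etfa, and 6 bases after it in Slc25a20. The RefSeq start beside the Cd36 match lies inside the gene as deposited (chr5:17781690-17888801, minus strand), away from its deposited start. Whether these cells use that RefSeq start was not tested. Of 12 letters, 11 matched in Fabp1 and 10 in each of the others. Of the members with the match, Cd36, Plin2, Etfa and Slc25a20 were higher in 3D and Fabp1 was not tested. Among all members tested 63.2% were higher, beside 23.4% of all genes tested. Whether a match goes with a rise was not tested. A match is a description of the letters and not a measured binding site.

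Genes of fatty acid synthesis also rose more often than they fell, at the supply of carbon and reducing power and at the later modification of the chain, while none of the 3 genes that make malonyl-CoA and palmitate passed the test as higher (Acacb passed in some alternative settings). Of the 13, 8 rose, 2 fell and 3 did not pass the test, with a median log2 fold change of 0.48 and a range from -0.47 to 1.84. Their summed level was 1612 and 1647 TPM in 2D and 2064 and 1946 TPM in 3D, and Scd2 alone made up 22.3 to 26.6% of it.

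Me1, the cytosolic malic enzyme that supplies NADPH, was at 135 and 137 TPM in 2D and 252 and 252 TPM in 3D. The 3D libraries were nearly the same and far above the 2D libraries, with a ratio of means of 1.85 and a log2 fold change of 0.88 (SE 0.04, adjusted p = 0.000318). Acly, which splits citrate into the acetyl-CoA used for synthesis, rose from 86.1 and 82.5 TPM to 122 and 114 TPM (log2 fold change 0.48, adjusted p = 0.00309).

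Fasn, the fatty acid synthase that builds palmitate, was at 145 and 130 TPM in 2D and 168 and 130 TPM in 3D. The 3D libraries differed from each other more than the culture means did, the cultures overlapped, and the 95% interval of the log2 difference ran from -0.246 to 0.465 (adjusted p = 0.532). Acaca, the cytosolic acetyl-CoA carboxylase that makes malonyl-CoA for synthesis, fell from 35.0 and 39.0 TPM to 30.3 and 29.8 TPM (log2 fold change -0.29, adjusted p = 0.0285). That call rested on few libraries: the adjusted p was 0.0750 without 2D replicate 2, 0.0957 without 3D replicate 1 and 0.115 without 3D replicate 2. Acacb, the carboxylase bound to the mitochondrion whose malonyl-CoA inhibits Cpt1a, was at 1.3 and 1.14 TPM in 2D and 1.85 and 1.85 TPM in 3D and did not pass (log2 fold change 0.36, adjusted p = 0.0659), although it passed with quantile normalization (adjusted p = 0.0422) and with a constant prior variance (adjusted p = 0.0168). A pseudogene inside Acacb on the opposite strand, Gm13784, was of like level, with a mean of 1.03 TPM in 2D and 2.24 TPM in 3D.

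The desaturases Scd2 and Fads2 were the most abundant synthesis transcripts in every library, and they moved in opposite directions. Scd2, which introduces the double bond of monounsaturated fatty acids and is expressed mainly outside the adult liver, was at 359 and 371 TPM in 2D and 546 and 518 TPM in 3D (log2 fold change 0.54, SE 0.04, adjusted p = 0.00119). Scd1, the form that predominates in adult liver, was at 90.6 and 93.5 TPM in 2D and 168 and 162 TPM in 3D (log2 fold change 0.83, SE 0.04, adjusted p = 0.000495). Both rose without overlap, Scd2 remained the more abundant in every library, and reads could be shared between these close paralogs, whose starts lie 114 kb apart on chromosome 19. Fads2, which starts the conversion of essential fatty acids to longer polyunsaturated forms, fell from 439 and 462 TPM to 336 and 314 TPM (log2 fold change -0.47, SE 0.05, adjusted p = 0.00264). Its neighbour Fads1, which acts at a later desaturation step and starts 81.4 kb away, was at 195 and 201 TPM in 2D and 242 and 229 TPM in 3D (log2 fold change 0.25, adjusted p = 0.0117), and without 3D replicate 1 its adjusted p was 0.0763.

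Of the elongases, Elovl5, which lengthens polyunsaturated chains, was at 64.8 and 68.5 TPM in 2D and 99.9 and 97.0 TPM in 3D. Both 3D libraries were above both 2D libraries (log2 fold change 0.56, SE 0.05, adjusted p = 0.00164). Elovl6, which lengthens palmitate to stearate, was less abundant, at 7.20 and 7.26 TPM in 2D and 8.97 and 8.08 TPM in 3D, and did not pass the test (log2 fold change 0.21, adjusted p = 0.116).

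Both regulators rose. Mlxipl, which encodes the glucose-responsive factor ChREBP, was at 1.74 and 2.39 TPM in 2D and 9.96 and 9.92 TPM in 3D. Its log2 fold change on the log2(TPM + 1) scale was 1.84 (SE 0.13, adjusted p = 0.000928), with a ratio of means of 4.82 and no overlap. That value was the highest of the 40 genes on this scale, but the order depended on the pseudocount: with 0.1 Cd36 (2.57) stood above Mlxipl (2.23), and with 5 Cpt1a (1.55) stood above Mlxipl (1.08). Srebf1, which encodes the insulin-responsive factor SREBP1, was more abundant and rose from 51.8 and 52.2 TPM to 79.4 and 80.1 TPM (log2 fold change 0.61, SE 0.04, adjusted p = 0.000920). The replicates of Srebf1 differed by less than 1 TPM in each culture.

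The bases upstream of Mlxipl are shown because it was among the members with the widest changes and because its RefSeq window holds an E-box (CACGTG), the letters shared by elements to which ChREBP and the USF factors bind. They are the 250 bases before the start on GRCm38.p6, 5′ to 3′ along the plus strand of the gene, and capitals mark, in order, a GC box, a CCAAT box read from the other strand as ATTGG, the E-box, which begins 98 bases before the start, and a GC box nearer the start.
Mlxipl (chr5:135089640-135089889, plus strand): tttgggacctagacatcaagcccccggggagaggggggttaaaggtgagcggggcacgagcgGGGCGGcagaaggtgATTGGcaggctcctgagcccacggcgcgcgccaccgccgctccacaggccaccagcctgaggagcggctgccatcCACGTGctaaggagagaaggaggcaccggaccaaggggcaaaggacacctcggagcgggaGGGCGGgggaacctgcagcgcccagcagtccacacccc
A second RefSeq window of Mlxipl, further along the gene, held a sterol regulatory element (TCACNCCAC).

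Storage genes rose with 1 exception. Of the 5, 4 rose, 0 fell and 1 did not pass the test (median log2 fold change 0.38), and the summed level was 746 and 747 TPM in 2D and 987 and 978 TPM in 3D. Most of that sum, 76.3 to 78.3%, was Plin2, the coat protein of lipid droplets in liver, which was the most abundant of the 40 transcripts. Plin2 was at 584 and 574 TPM in 2D and 753 and 756 TPM in 3D, with the libraries of a culture close together (log2 fold change 0.38, SE 0.03, adjusted p = 0.00130). Pnpla2, the lipase that opens triglyceride breakdown, rose from 78.0 and 87.2 TPM to 102 and 105 TPM (log2 fold change 0.32, adjusted p = 0.0157), with an adjusted p of 0.0640 without 3D replicate 1 and 0.0762 without 3D replicate 2.

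Triglyceride assembly begins with Gpam, the mitochondrial glycerol phosphate acyltransferase, which was at 29.3 and 31.2 TPM in 2D and 53.4 and 50.3 TPM in 3D. Both 3D libraries were higher (log2 fold change 0.76, SE 0.06, adjusted p = 0.00130). Of the enzymes that add the last acyl chain, Dgat2 rose from 21.6 and 22.6 TPM to 42.9 and 40.5 TPM (log2 fold change 0.89, SE 0.06, adjusted p = 0.000874). Dgat1 was at 32.7 and 31.8 TPM in 2D and 35.0 and 26.5 TPM in 3D, with the 2D libraries between the 3D libraries and a 95% interval of the log2 difference from -0.445 to 0.289 (adjusted p = 0.666).

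**Figure D2:**
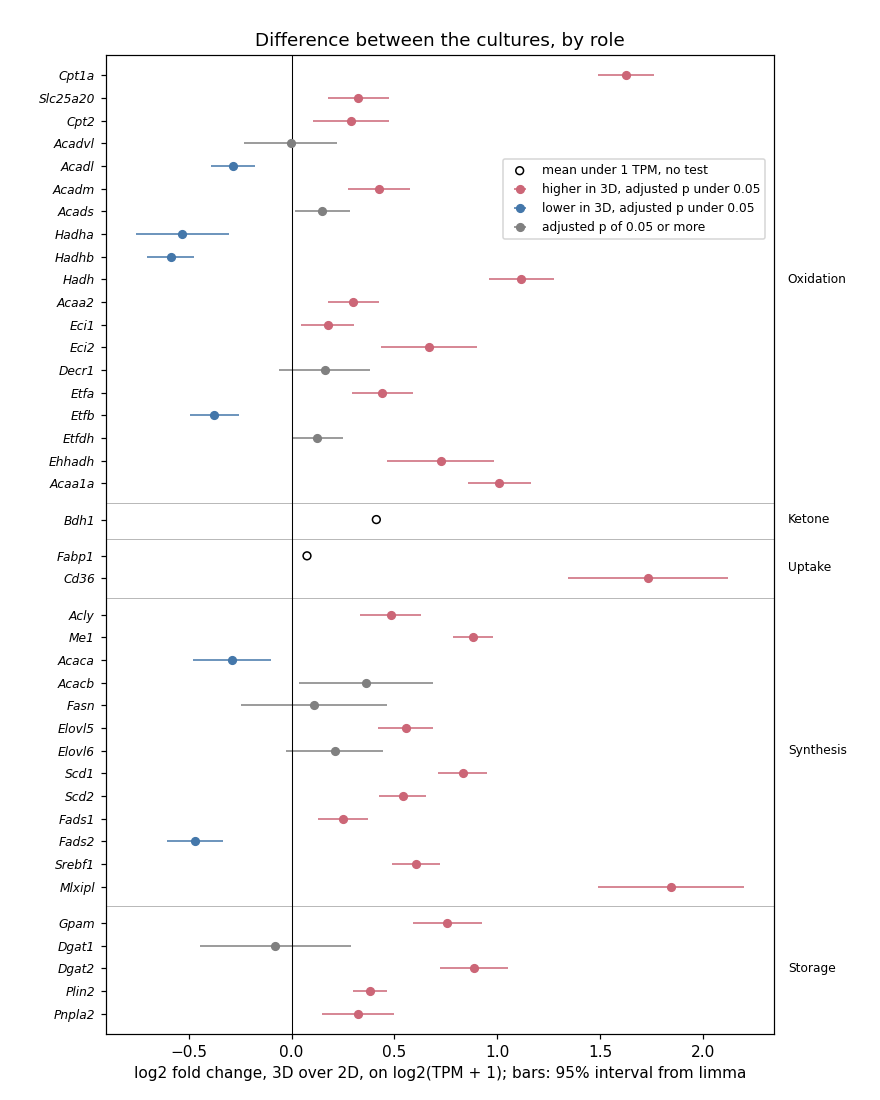
Log2 fold change of each member, 3D over 2D, on log2(TPM + 1), with the 95% interval from limma as a bar. Red genes are higher and blue genes lower in 3D at an adjusted p under 0.05, grey genes did not pass, and open circles mark Bdh1 and Fabp1, which were not tested. The mitochondrial cycle holds Hadh at 1.12 beside Hadhb at -0.59.

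Ratios of partner genes within a library do not depend on the scaling of that library and show where isoforms or subunits changed unequally. The ratio of Fads1 to Fads2 was 0.443 and 0.436 in 2D and 0.719 and 0.730 in 3D. The ratio of Etfa to Etfb was 0.380 and 0.356 in 2D and 0.638 and 0.666 in 3D. In both pairs the 3D ratios were higher, since the less abundant gene rose and the more abundant gene fell. The order of the acyltransferases turned over, with Dgat1 to Dgat2 at 1.51 and 1.41 in 2D and 0.816 and 0.654 in 3D. Acaca to Acacb was 27.0 and 34.1 in 2D and 16.4 and 16.1 in 3D, and the cytosolic form stayed the more abundant. Scd1 to Scd2 moved less, from 0.252 and 0.252 in 2D to 0.307 and 0.312 in 3D. Elovl5 to Elovl6 was 9.0 and 9.44 in 2D and 11.1 and 12.0 in 3D. The summed synthesis genes exceeded the summed oxidation genes in every library, with a ratio of 1.43 and 1.44 in 2D and 1.65 and 1.54 in 3D. These ratios are given as a description, without a test.

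**Figure D3:**
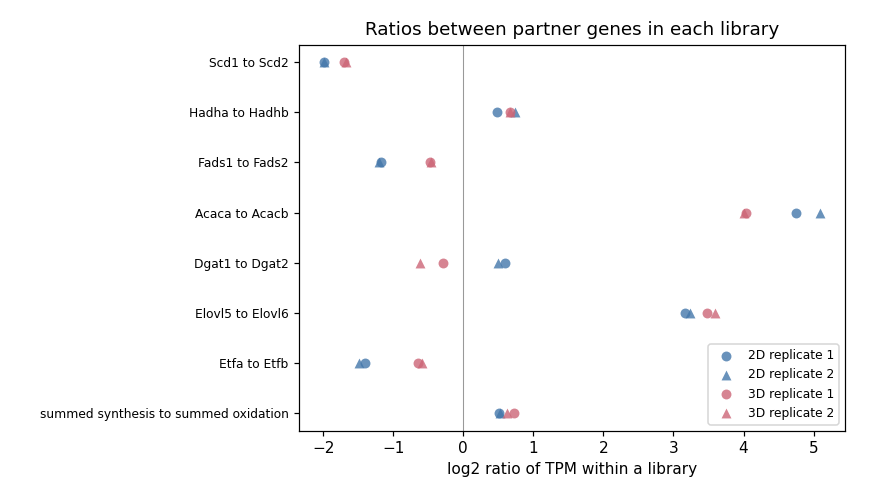
Log2 ratio of TPM between partner genes within each library, with blue for 2D, red for 3D, and a circle or triangle for replicate 1 or 2; the line marks equal levels. The Dgat1 to Dgat2 ratio lies above the line in 2D and below it in 3D, and the Hadha to Hadhb ratio overlaps between cultures.

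RefSeq promoter windows were matched by symbol for 33 of the 40 members and compared with the windows of 27025 genes, counting a gene when any of its windows held the letters on either strand. A GC box (GGGCGG) was present in 24 members (72.7%) and in 38.2% of all genes, and a CCAAT box (CCAAT) in 18 members (54.5%) and 41.1% of all genes. DR1 elements were matched in 5 members (15.2%) and 4.40% of all genes. The E-box was present in Elovl5, Mlxipl and Plin2 (9.09%) and in 8.09% of all genes, and the sterol regulatory element in Ehhadh and Mlxipl (6.06%) and in 1.44% of all genes. Of the member matches, 0 overlapped a match of another of these motifs. The 27025 genes were not limited to expressed genes, whereas 38 of the 40 members had a mean of at least 1 TPM. Shares among expressed genes were not computed. Decr1, Fads1, Acaa2, Scd1, Scd2, Dgat1 and Dgat2 had no entry in the promoter table.

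Beyond the 40 members, 8 lists of further genes of these pathways held 151 genes, of which 119 were tested; 59 rose and 19 fell. Rises outnumbered falls in this wider set too, beside the 23.4% and 27.1% of all genes tested. The lists, like the members, were chosen with earlier results of these data known. Of other peroxisomal oxidation genes, 12 of 18 rose and 1 fell. Ech1, a dienoyl-CoA isomerase, rose (log2 fold change 0.77, adjusted p = 0.00225), while Acox3 did not pass (adjusted p = 0.337). Of other genes of mitochondrial oxidation, 5 of 12 rose and 4 fell, a mixed split like that of the members: Acot13 rose (log2 fold change 0.26, adjusted p = 0.0158, but 0.0754 and 0.0815 without 3D replicate 1 and 2), Acad11 fell (log2 fold change -0.47, adjusted p = 0.0182, but 0.0680 and 0.0973 without 2D replicate 1 and 2) and Echs1 did not pass (adjusted p = 0.542). The mitochondrial counts shifted with single libraries, to 3 higher without either 3D library, and to 1 lower without 2D replicate 1, 0 lower without 2D replicate 2 and 2 lower without 3D replicate 1. Of the 6 other ketone body genes tested, 3 rose and 1 fell, the latter being Aacs, which uses ketone bodies for synthesis (log2 fold change -0.57, adjusted p = 0.00154), and Oxct1 did not pass (adjusted p = 0.0623). Without either 2D library 2 genes of that list fell, since Oxct1 then passed (adjusted p = 0.00473 without 2D replicate 1 and 0.0388 without 2D replicate 2).

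The list of PPAR regulators and their other targets held 17 genes, of which 7 were below the level for testing. Among the 10 tested, 6 rose and 0 fell. The targets Cyp4a10, Cyp4a12a, Cyp4a14 and Fgf21 were not tested, with no library above 0.265 TPM. Ppara, the receptor that switches on fatty acid oxidation in fasting, rose from 5.47 and 6.35 TPM to 11.9 and 11.1 TPM (log2 fold change 0.86, adjusted p = 0.00333), and its coactivator Ppargc1a from 2.88 and 3.35 TPM to 9.96 and 9.37 TPM (log2 fold change 1.37, adjusted p = 0.00102). Rxra, the partner of PPAR on DNA, and the PPAR target Angptl4 rose too, with log2 fold changes of 0.97 (adjusted p = 0.000789) and 0.73 (adjusted p = 0.00304). Ppard (adjusted p = 0.556) and Lpin1 (adjusted p = 0.382) did not pass. Vnn1 (log2 fold change -0.20, adjusted p = 0.266) and Ucp2 (log2 fold change -0.28, adjusted p = 0.0648) did not pass either. Pdk4 stayed at 0.259 and 0.357 TPM in 2D and 0.436 and 0.711 TPM in 3D and was not tested. Without 2D replicate 1, 1 gene of the list fell. Of 14 genes of acyl-CoA synthesis, transport and binding, 4 rose and 3 fell (1 fell without 3D replicate 1), shares close to those of all genes tested: Got2 rose slightly (log2 fold change 0.15, adjusted p = 0.0426), Dbi fell (log2 fold change -0.28, adjusted p = 0.0231), and Acsl5 (adjusted p = 0.105, but 0.0392 with quantile normalization) and Acsl1, the main acyl-CoA synthetase of liver (3.99 and 3.98 TPM in 2D and 4.76 and 4.75 TPM in 3D, adjusted p = 0.126, but 0.0405 with a constant prior variance), did not pass. The adjusted p of Got2 was 0.110 without 2D replicate 1, 0.123 without 3D replicate 1 and 0.202 without 3D replicate 2, and that of Dbi was 0.0909 without 3D replicate 1 and 0.0978 without 3D replicate 2.

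Of 18 other fatty acid synthesis genes, 8 rose and 5 fell, and without either 3D library 3 rose. Fads3, which starts 60.0 kb from Fads2, fell as Fads2 did (log2 fold change -0.34, adjusted p = 0.00311), Pgd, a source of NADPH, rose (log2 fold change 0.21, adjusted p = 0.0202) and Tecr did not pass (adjusted p = 0.586). Of 19 other lipogenic regulators, 9 rose and 0 fell. The list holds factors that promote synthesis and factors that restrain it, so these counts give no direction of synthesis. Srebf2 rose (log2 fold change 0.62, adjusted p = 0.000979). Insig1, which helps to hold SREBP in the endoplasmic reticulum, rose too (log2 fold change 0.47, adjusted p = 0.00411). Prkab1, a subunit of AMP-activated kinase, rose slightly (log2 fold change 0.15, adjusted p = 0.0407). Prkag1 did not pass (adjusted p = 0.0734, but 0.0347 with quantile normalization and 0.0475 after rescaling). Thrsp was below 0.05 TPM in all libraries. Of 22 other triglyceride and lipid droplet genes, 12 rose and 5 fell (3 fell without 2D replicate 2 or without 3D replicate 2). The adjusted p of Pgd was 0.0507 without 2D replicate 2, 0.0818 without 3D replicate 1 and 0.112 without 3D replicate 2, and that of Prkab1 was 0.0937, 0.144 and 0.188 without the same libraries. Plin3, a droplet coat protein, rose (log2 fold change 0.94, adjusted p = 0.000664), as did Cidec, a droplet fusion protein, from 0.436 and 0.784 TPM to 3.34 and 3.37 TPM (log2 fold change 1.44, adjusted p = 0.00252). Hilpda (adjusted p = 0.0773), G0s2, the inhibitor of Pnpla2 (adjusted p = 0.213), and Agpat1 (adjusted p = 0.247, but 0.00587 without 3D replicate 1) did not pass, and Plin5 stayed below 0.1 TPM.

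**Figure D4:**
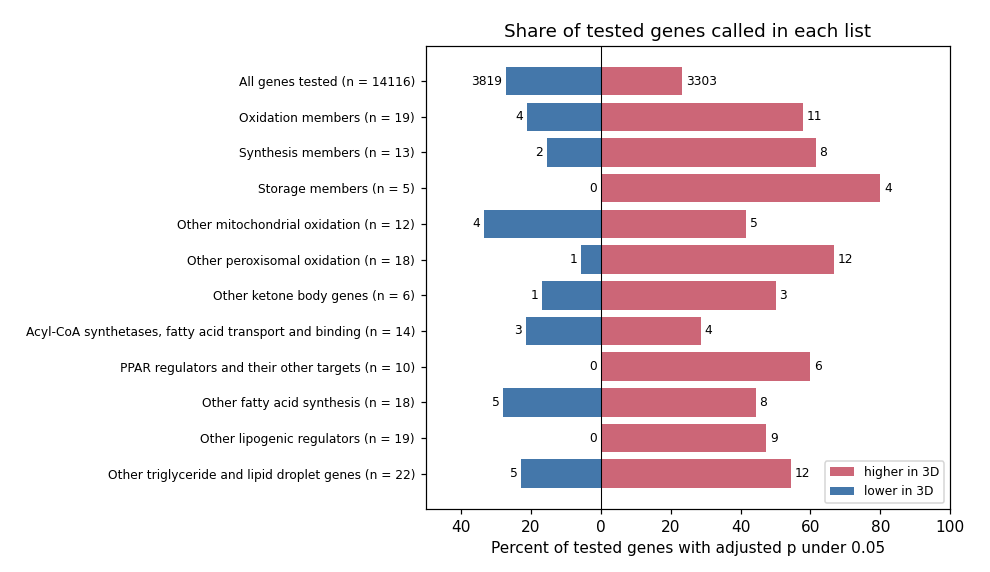
Percent of tested genes that were higher (red, to the right) or lower (blue, to the left) in 3D at an adjusted p under 0.05, for all genes tested, the member groups and the 8 lists, with the number of genes at each bar. Bars to the right exceed bars to the left in each of the 3 member groups and 8 lists plotted, whereas for all genes tested 3819 were lower and 3303 higher.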

How the data were processed

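RNA-seq libraries were prepared from polyadenylated RNA with a stranded kit. Reads were trimmed by the authors with cutadapt 1.8.3 and Trimmomatic 0.36, aligned to GRCm38 with HISAT2 2.0.5 and quantified with StringTie 1.3.4. TPM values per gene and library were deposited by the authors. A log2 fold change and a p-value of their DESeq2 comparison were also deposited by the authors and were not used. TPM keeps no depth, so depth is unknown and no counting interval was computed.

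A linear model was fitted by limma 3.58.1 (R 4.3.3, eBayes with trend and robust variance) to log2(TPM + 1) of every gene whose mean over the 4 libraries reached 1 TPM, with two-sided tests, with Benjamini-Hochberg adjustment over all genes tested and culture as the only factor. The script was tested on simulated data. Members and lists were chosen with earlier results of these data known. Values in every library and the full test are given for members with an adjusted p under 0.05 and an absolute log2 fold change of at least 0.5, for the most abundant member of each role and for members below the filter; of each list, up to 3 genes with the highest mean TPM are named, beside a set of preset genes, some of which are not reported here. Alternatives were pseudocounts of 0.1 and 5, no filter, a filter of 5 TPM, median centring, quantile normalization, rescaling without mitochondrial and the 20 highest genes, a replicate block, a constant prior variance, narrower groups and leaving out each library. Positions are those of the deposited table. Promoter sequences were taken from RefSeq (GRCm38.p6) and searched with Python 3.11.15, and figures were drawn with matplotlib 3.10.9.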

Additional observations from a re-analysis of the deposited data

How the results depend on the processing

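Over 13 alternatives, 490 of 517 member values kept their side of the threshold or moved by less than the replicate spread, 20 lost and 3 gained a call, and 4 moved. No called member changed sign. Acadvl, Fasn and Dgat1, which were called in 0 settings, did: Acadvl reached 0.10 and Fasn -0.07 without 3D replicate 1, and Dgat1 0.12 without 3D replicate 2, and Acadvl was also above 0 with median centring, quantile normalization, rescaling and without 2D replicate 1. Of the 30 members called, 24 kept the call in every alternative in which they were tested (Ehhadh and Cd36 were not tested with a filter of 5 TPM); Slc25a20, Cpt2, Eci1, Acaca, Fads1 and Pnpla2 lost it in at least 1. Of 44 further genes followed singly over the alternatives, Dbi, Got2, Pgd, Prkab1, Acot13 and Acad11 lost a call in at least 1 alternative. Among the same genes, Acsl5, Acsl1, Prkag1, Oxct1 and Agpat1 gained one, and 0 that were called changed sign. Not every gene named in the text was among the 44. Without a filter the members Acaca (adjusted p = 0.0677), Cpt2 (0.0600) and Eci1 (0.0894) lost the call, and Eci1 also with a constant prior variance (0.0774). Acads gained a call when mitochondrial and the 20 highest genes were left out (adjusted p = 0.0427). The number of genes called over the whole table was 4720 to 5954 with 1 library left out, lowest without 3D replicate 1. The median log2 fold change of the oxidation genes was 0.30 with a pseudocount of 0.1, 0.24 with 5, 0.30 with median centring, 0.32 after rescaling, 0.24 to 0.32 with 1 library left out and 0.17 without Ehhadh, Acaa1a and Eci2. For synthesis genes it was 0.54 with a pseudocount of 0.1, 0.52 with quantile normalization, 0.43 to 0.53 with 1 library left out and 0.37 without Acacb, Srebf1 and Mlxipl; the number of synthesis genes that fell was 1 without a filter and 1 to 2 with 1 library left out. The median for uptake was 1.55 with a pseudocount of 0.1 and 0.39 with 5, and the difference of Bdh1 was 0.95 and 0.12, as low values depend on the pseudocount. With the replicate number as a block 6248 genes were called, and Cpt2 (adjusted p = 0.0533) and Eci1 (0.0895) lost the call; deviations of same-numbered libraries had a correlation of -0.05, so the numbers were not taken to pair the libraries. The cause of these shifts was not tested. The limits are 2 libraries per culture, a drug exposure, a gel and a growth state that differ with culture, and TPM without depth.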

Other observations

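Acot1, Acot2 and Lpin2, genes of the wider lists, had higher log2 fold changes on the log2(TPM + 1) scale than any of the 40 members, though with a pseudocount of 0.1 Cd36 (2.57) was above them, and the genes given here were picked once their values were known. The acyl-CoA thioesterases Acot1 and Acot2, which release free fatty acids in the cytosol and in mitochondria and are known PPARalpha targets, were at 12.5 and 12.8 TPM (Acot1) and 6.70 and 6.91 TPM (Acot2) in 2D. In 3D they were at 75.9 and 74.0 TPM and at 37.9 and 36.4 TPM, with log2 fold changes of 2.48 (limma adjusted p = 0.000192) and 2.29 (adjusted p = 0.000215). The genes are close paralogs, so reads may have been shared between them. Lpin2, a phosphatidate phosphatase of triglyceride assembly, rose from 16.5 and 15.9 TPM to 87.1 and 78.8 TPM (log2 fold change 2.29, adjusted p = 0.000230).

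In the other direction, Fabp5, a fatty acid-binding protein abundant in skin, fell from 210 and 205 TPM to 57.7 and 64.1 TPM (log2 fold change -1.76, adjusted p = 0.000269), and Scd3, a paralog of Scd1 and Scd2 on chromosome 19, fell from 3.09 and 4.09 TPM to 0.630 and 0.519 TPM (log2 fold change -1.54, adjusted p = 0.00227). The libraries of the cultures did not overlap for these genes. The acyl-CoA synthetases were divided by isoform: Acsl4 rose from 42.7 and 44.6 TPM to 116 and 116 TPM (adjusted p = 0.000241) and Acsl3 from 55.3 and 49.8 TPM to 106 and 116 TPM (adjusted p = 0.000919), whereas Acsl5 and Acsl1 did not pass the test. Mttp, which loads triglyceride onto lipoproteins, fell from 33.6 and 34.7 TPM to 21.6 and 19.9 TPM (log2 fold change -0.70, adjusted p = 0.00201).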
